A study of Mus musculus with 12 samples.

Results

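The genes described here encode the adhesion molecules and integrins of resting B (RB) cells. They are the ligands Icam1 and Icam2, the integrin subunits Itgal, Itgb2, Itga4, Itgb1 and Itgb7, the hyaluronan receptor Cd44 and the selectin ligand Selplg. They were chosen by name, as 9 of the 29411 gene symbols on the array outside its noncoding RNA probes, and 15 of the 61307 probes carried one of the symbols. RB cells were isolated from BALB/c spleens by negative selection against CD43, from mice that the labels describe as female and 6 weeks old. There were 2 arrays for each of 6 groups. Cells were unstimulated, or were stimulated with Pam2csk4 (a lipopeptide that activates TLR2), anti-CD86, anti-CD86 and Pam2csk4, anti-CD40, or anti-CD40 and Pam2csk4, and the labels give 4 h of culture for all of them. The antibodies acted on purified cells in culture, and the number of mice behind an array was not given in the sources used here. The study calls the arrays of a group biological replicates, and whether they came from separate cultures or animals was not given in the sources used here, so the p-values measure the spread between these arrays, whatever its source.

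Adhesion molecules hold a B cell in place in lymphoid tissue and let it dock on other cells. Integrins are pairs of an alpha and a beta chain that switch between a resting and an active shape, so that a cell can bind through them without making new protein. Itgal and Itgb2 form LFA-1, whose ligands include ICAM-1 and ICAM-2. Itga4 pairs with Itgb1 to form VLA-4, which binds VCAM-1 and fibronectin, or with Itgb7 to form the receptor for the gut addressin MAdCAM-1. CD44 binds hyaluronan, and PSGL-1, the product of Selplg, binds selectins once sugars and sulfate have been added to it. CD40 and TLR2 both signal to NF-kB in B cells, and Icam1 is a well known NF-kB target.

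A level is the log2 signal of a probe minus the 75th percentile of its array, so a level of 0 stands for a probe as bright as that percentile. A gene with several probes is given by its brightest one. Of the 15 probes, 14 were well above background on all 12 arrays and were tested, and none was saturated. The gene that moved most, Icam1, had 1 probe, and its sequence shows what was measured. The dimmest of the 3 probes of Cd44 was well above background on 2 arrays only and was not tested. The array file lists it for 2 transcripts and the other probes of Cd44 for 3, and its sequence marks a stretch of Cd44 that was not tested here. Both are given 5′ to 3′.
Icam1 probe: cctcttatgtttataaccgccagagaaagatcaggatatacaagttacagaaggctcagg
Cd44 dimmest probe: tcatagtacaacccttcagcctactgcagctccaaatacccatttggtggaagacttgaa

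The arrays lay on 2 slides. Slide 1 held both unstimulated arrays, both arrays of anti-CD40 and Pam2csk4, and replicate 1 of the other groups, and slide 2 held replicate 2 of those. The share of spots well above background ran from 46.6% to 60.6% of an array and was highest on anti-CD40 replicate 2, which stood apart from the other arrays. The B cell markers Cd79a, Cd79b, Ms4a1, Cd22 and Pax5 were well above background on all 12 arrays. Markers of other cells were detected too. On all 12 arrays were 5 of 6 T cell, 4 of 5 NK cell, 6 of 6 myeloid, 3 of 3 plasma cell, 3 of 4 platelet, 2 of 3 red cell and 1 of 4 endothelial genes. The summed signal of the NK cell genes was 15.0 to 15.1 times the 75th percentile in unstimulated cells and 8.26 to 12.9 on the stimulated arrays. That of the T cell genes was 14.5 to 14.8 against 9.42 to 13.8. The myeloid sum was 317 to 346 in unstimulated cells, 290 to 320 with Pam2csk4, 267 to 282 with anti-CD86, 273 to 303 with anti-CD86 and Pam2csk4, 267 to 303 with anti-CD40 and 331 to 377 with anti-CD40 and Pam2csk4. The B cell sum was 336 to 366 in unstimulated cells, 433 to 487 with anti-CD40 and Pam2csk4, and 313 to 416 with the other stimuli. The plasma cell sum was 191 to 214 in unstimulated cells and 251 to 258 with anti-CD40 and Pam2csk4. Several of the genes described here are also made by T, NK and myeloid cells, and the part of those cells in the results was not tested.

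**Figure D1:**
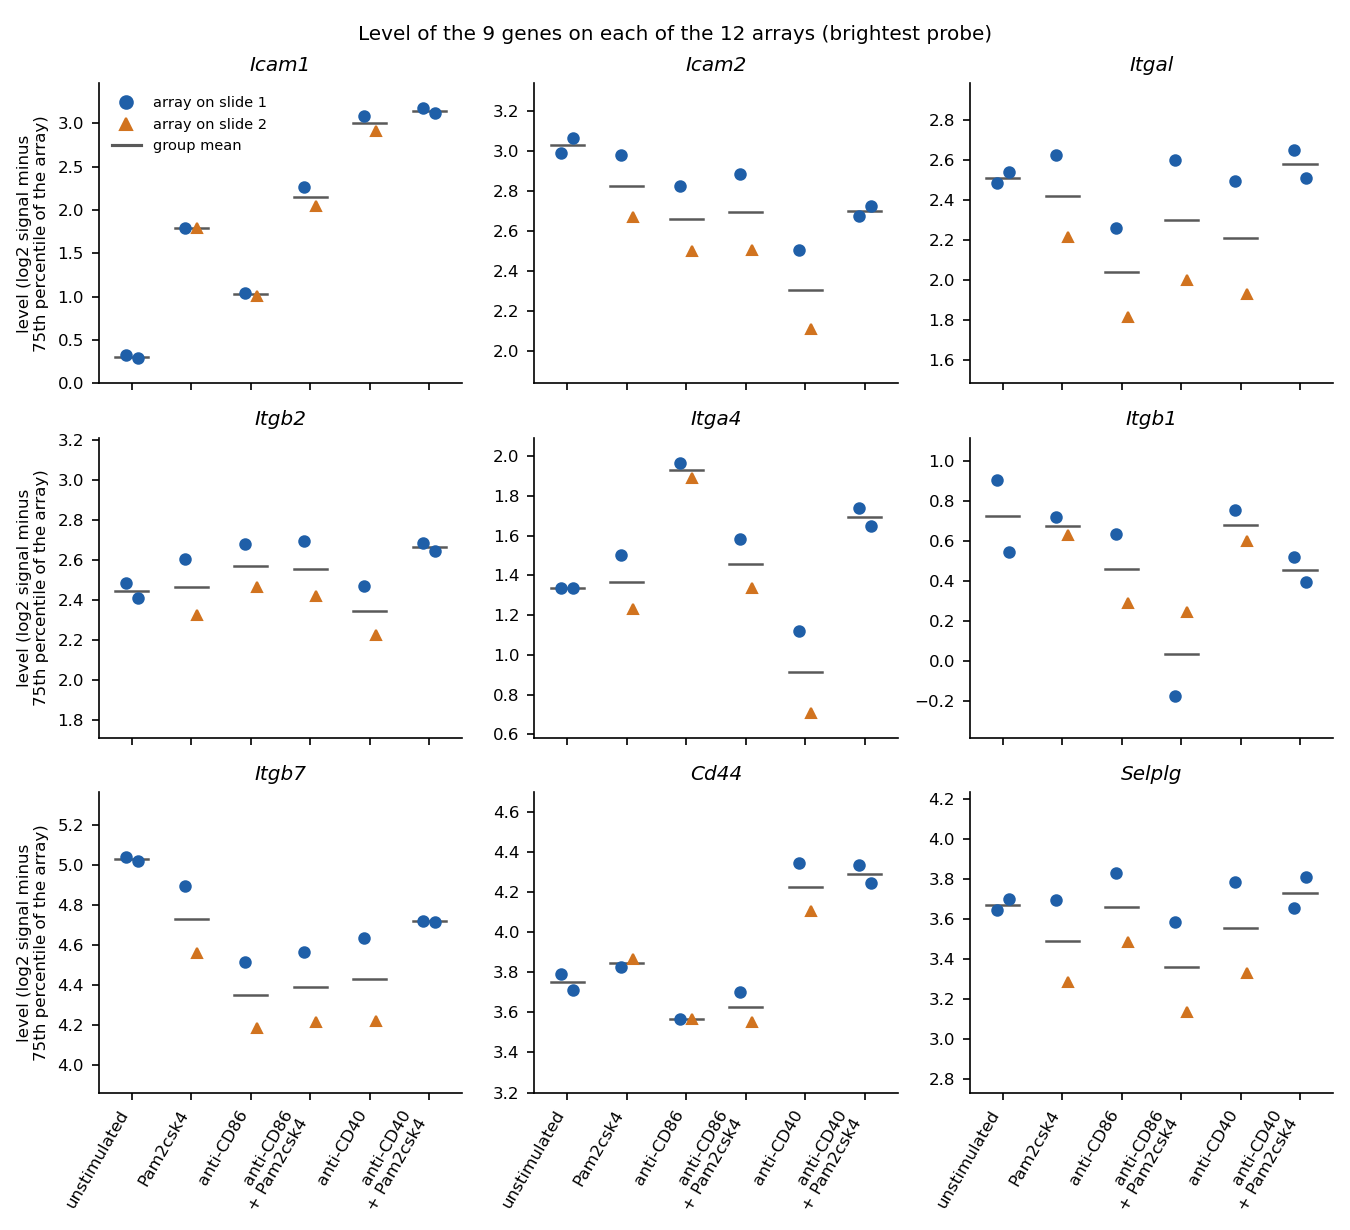
Level of each gene on each of the 12 arrays (log2 signal minus the 75th percentile of the array, brightest probe), with circles for slide 1, triangles for slide 2 and a bar for the group mean; the scale differs between panels. Icam1 climbed from 0.30 in unstimulated cells to 3.15 with anti-CD40 and Pam2csk4. In each group split between slides the slide 2 array was the lower one for Icam1, Icam2, Itgal, Itgb2, Itga4, Itgb7 and Selplg.

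Icam1 rose with every stimulus, Cd44 rose where anti-CD40 was present, and Icam2 fell with anti-CD40. By their brightest probes and without a slide block, the integrin subunits and Selplg did not pass the threshold (limma, Benjamini-Hochberg adjusted p below 0.05 over the 31596 probes tested) in any of the 5 comparisons with unstimulated cells. With the slide as a block Itgb7 passed in 4 of them, Itgb2 and Itga4 in 3 each and Itgb1 in 1. Without the block 1 of the 9 genes passed with Pam2csk4, where 0.133% of all probes did. With anti-CD86 it was 1 of 9 (2.07% of all probes), with anti-CD86 and Pam2csk4 1 of 9 (10.7%), with anti-CD40 3 of 9 (16.8%) and with anti-CD40 and Pam2csk4 2 of 9 (18.1%). Most of these shares are small counts set against a background that differed widely between stimuli. The median log2 fold change of the 9 genes was -0.05, -0.19, -0.21, -0.12 and 0.07 in the same order, beside -0.07, -0.05, -0.03, -0.02 and 0.01 over all probes tested. With the slide as a block the medians of the 9 genes were 0.14, -0.14, -0.08, -0.02 and 0.07, so the direction with Pam2csk4 turned and the values with anti-CD86 and Pam2csk4 and with anti-CD40 were nearer to 0.

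Icam1 encodes ICAM-1, the main ligand of LFA-1 on activated B cells. Its levels were 0.32 and 0.29 on the unstimulated arrays, 1.04 and 1.01 with anti-CD86, and 1.79 and 1.79 with Pam2csk4. They were 2.27 and 2.04 with anti-CD86 and Pam2csk4, 3.08 and 2.92 with anti-CD40, and 3.17 and 3.12 with anti-CD40 and Pam2csk4. No array of one group overlapped with those of another, and the order of the groups was the same on slide 1 as in the means. The 5 increases over unstimulated cells were 1.65-fold with anti-CD86 (log2 fold change 0.72, SE 0.12, adjusted p = 0.0323) and 2.80-fold with Pam2csk4 (1.49, adjusted p = 0.00495). With anti-CD86 and Pam2csk4 the increase was 3.61-fold (1.85, adjusted p = 0.00112), with anti-CD40 6.48-fold (2.70, adjusted p = 6.9e-05) and with anti-CD40 and Pam2csk4 7.17-fold (2.84, adjusted p = 6.8e-06). In the order of the levels, anti-CD86 lay below Pam2csk4 by 0.76 (adjusted p = 0.0334), and anti-CD40 lay above anti-CD86 and Pam2csk4 by 0.84 (adjusted p = 0.00779). The steps from Pam2csk4 to anti-CD86 and Pam2csk4 and from anti-CD40 to anti-CD40 and Pam2csk4 did not pass. The arrays measured bulk RNA, in which more cells with Icam1 and more Icam1 RNA per cell cannot be told apart. The call with anti-CD86 was lost without any 1 of its 4 arrays (log2 fold change 0.70 to 0.74, adjusted p = 0.148 to 0.245), and that with Pam2csk4 without unstimulated replicate 1 or 2 (1.50 and 1.47, adjusted p = 0.0635 and 0.0745). When each array was scaled to its median in place of the 75th percentile, which shifted all log2 fold changes by -0.57 to -0.11, Icam1 remained higher in all 5 groups (0.58 to 2.73), and the 2 values with anti-CD40 passed. The largest shift, with anti-CD40, came mainly from its replicate 2. Relative to the 75th percentile the array median was -2.80 there and -3.83 on replicate 1. With 46.6% to 60.6% of spots well above background, the median also lay near the limit of detection.

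The design allows both signals to be set against each one alone. Adding Pam2csk4 to anti-CD86 raised Icam1 2.19-fold (1.13, SE 0.12, adjusted p = 0.0119), and this was 1 of 9 genes beside 0.225% of all probes. Adding anti-CD86 to Pam2csk4 gave a log2 difference of 0.36 (95% confidence interval 0.10 to 0.63, adjusted p = 0.333). In this comparison limma passed 0 of the 9 genes (0.0633% of all probes), and 2 of them had an unadjusted p under 0.05, as did 3257 of the 31596 probes. A fit that took the slide as a block passed the Icam1 difference of 0.36 (adjusted p = 0.0253). The difference was 0.47 within slide 1 and 0.26 within slide 2. Adding anti-CD40 to Pam2csk4 raised Icam1 2.56-fold (1.36, adjusted p = 0.000716), as 1 of 9 genes beside 9.81% of all probes. Adding Pam2csk4 to anti-CD40 gave 0.15 (95% confidence interval -0.12 to 0.41, adjusted p = 0.517). There limma passed 0 of the 9 genes (2.89% of all probes), and 1 had an unadjusted p under 0.05, as did 6255 of the 31596 probes. The call for adding Pam2csk4 to anti-CD86 was lost without anti-CD86 replicate 1 or 2 or anti-CD86 and Pam2csk4 replicate 1 (1.15, 1.11 and 1.02, adjusted p = 0.0930, 0.0693 and 0.0597). Under median scaling neither this call nor that for adding anti-CD40 to Pam2csk4 passed (0.98 and 1.44, adjusted p = 1.00 and 0.182).

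The interaction asks whether both signals given together moved a gene by more or less than their separate log2 effects added up. For anti-CD40 and Pam2csk4 the single effects on Icam1 summed to 4.18, and the measured effect was 2.84. The difference of -1.34 (SE 0.16, 95% confidence interval -1.72 to -0.96) passed the threshold (adjusted p = 0.00934), and Icam1 was 1 of 9 genes beside 1.15% of all probes. The Icam1 difference made by Pam2csk4 was 1.49 without anti-CD40 and 0.15 with it. For anti-CD86 and Pam2csk4 the single effects summed to 2.21 and the measured effect was 1.85. That difference of -0.36 did not pass (95% confidence interval -0.74 to 0.02, adjusted p = 0.972), as was so for all 9 genes with limma (0.0190% of all probes, and 0 of 9 at an unadjusted p under 0.05, beside 1347 of the 31596 probes). The interaction is on the log2 scale. In signal relative to the 75th percentile, Icam1 gained 2.23 with Pam2csk4, 6.76 with anti-CD40 and 7.62 with both, from 1.23 in unstimulated cells. It gained 0.80 with anti-CD86 and 3.22 with anti-CD86 and Pam2csk4. On this scale the gain with both signals was below the single gains added up for anti-CD40 and above them for anti-CD86. Differences on this scale were not tested. The call with anti-CD40 was lost without unstimulated replicate 1 or 2 or anti-CD40 and Pam2csk4 replicate 1 or 2, with values of -1.37 to -1.31 and adjusted p-values of 0.0511 to 0.0658. Under median scaling, which moved anti-CD40 replicate 2 the most, the interaction was -0.69 and did not pass (adjusted p = 0.458).

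**Figure D2:**
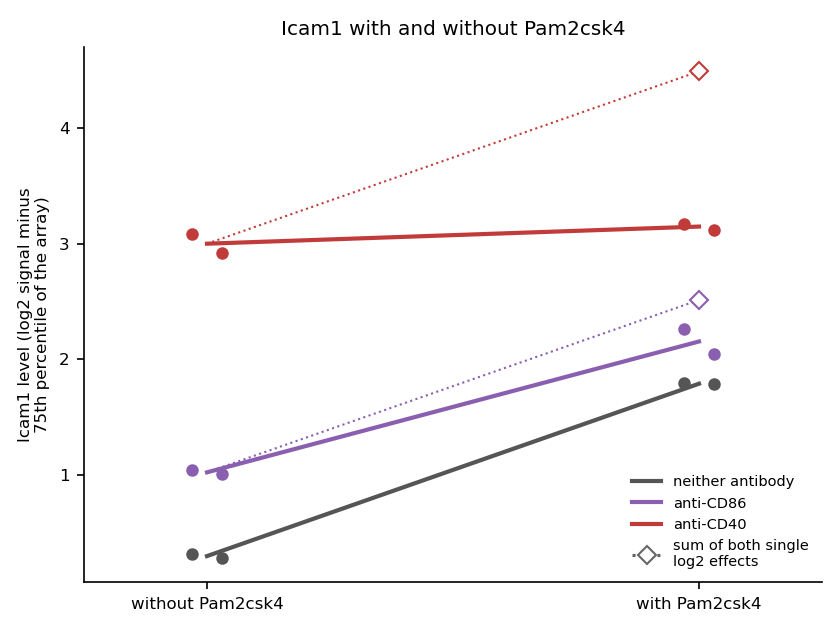
Icam1 level (log2 signal minus the 75th percentile of the array) without and with Pam2csk4, for cells with neither antibody, with anti-CD86 or with anti-CD40. Points are arrays, solid lines join group means, and open diamonds on dotted lines mark where the sum of both single log2 effects would put the level. With anti-CD40 the measured mean of 3.15 lay 1.34 below the diamond.

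Icam2 encodes the second LFA-1 ligand, which resting lymphocytes carry without stimulation. Its levels were 2.99 and 3.07 in unstimulated cells, 2.98 and 2.67 with Pam2csk4, 2.82 and 2.50 with anti-CD86, and 2.88 and 2.51 with anti-CD86 and Pam2csk4. They were 2.50 and 2.11 with anti-CD40 and 2.67 and 2.72 with anti-CD40 and Pam2csk4. The arrays of all stimulated groups lay below both unstimulated ones. The anti-CD40 mean was the lowest, and its arrays overlapped with those of anti-CD86. Icam2 fell 1.65-fold with anti-CD40 (log2 fold change -0.72, SE 0.20, adjusted p = 0.0444), the opposite direction to Icam1 in the same cells. The other 4 differences from unstimulated cells, -0.37 to -0.21, did not pass. In the slide block fit the anti-CD40 value was -0.55 (adjusted p = 0.000869), and Icam2 was then also lower with anti-CD86 (-0.19, adjusted p = 0.0487) and with anti-CD40 and Pam2csk4 (-0.33, adjusted p = 0.00314). The call without the block was lost without unstimulated replicate 1 or 2 or anti-CD40 replicate 2 (-0.76, -0.68 and -0.52, adjusted p = 0.164, 0.199 and 0.211), and under median scaling, which gave -1.29 (adjusted p = 0.137).

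Itgal encodes the alpha chain of LFA-1. Its levels were 2.49 and 2.54 in unstimulated cells, 2.63 and 2.21 with Pam2csk4, 2.26 and 1.82 with anti-CD86, and 2.60 and 2.00 with anti-CD86 and Pam2csk4. They were 2.49 and 1.93 with anti-CD40 and 2.65 and 2.51 with anti-CD40 and Pam2csk4. Both arrays of anti-CD86 lay below the unstimulated ones, and the other stimulated groups overlapped with these. Itgal lay 0.50 lower on slide 2 than on slide 1 (adjusted p = 0.000818), more than any of its differences from unstimulated cells, which ran from -0.47 to 0.07. No neighbours in the order of its group means differed beyond their spread (adjusted p = 0.746 to 0.996).

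Itgb2 encodes the beta chain that LFA-1 shares with other leukocyte integrins. Its levels were 2.48 and 2.41 in unstimulated cells, 2.60 and 2.33 with Pam2csk4, 2.68 and 2.47 with anti-CD86, and 2.69 and 2.42 with anti-CD86 and Pam2csk4. They were 2.47 and 2.23 with anti-CD40 and 2.68 and 2.64 with anti-CD40 and Pam2csk4. The arrays of all groups ran from 2.23 to 2.69, and the differences from unstimulated cells, -0.10 to 0.22, did not pass. The slide block fit gave Itgb2 as higher by 0.25 with anti-CD86 (adjusted p = 0.0172), 0.24 with anti-CD86 and Pam2csk4 (adjusted p = 0.0171) and 0.22 with anti-CD40 and Pam2csk4 (adjusted p = 0.0133). Neither chain of LFA-1 passed without the block.

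Itga4 encodes the alpha 4 chain, which pairs with either beta chain described next. Its brightest probe read 1.34 and 1.34 in unstimulated cells, 1.50 and 1.23 with Pam2csk4, 1.97 and 1.89 with anti-CD86, and 1.58 and 1.34 with anti-CD86 and Pam2csk4. It read 1.12 and 0.71 with anti-CD40 and 1.74 and 1.65 with anti-CD40 and Pam2csk4. Both anti-CD86 arrays were the highest of all and both anti-CD40 arrays the lowest. The difference from unstimulated cells was 0.59 with anti-CD86 (SE 0.17, adjusted p = 0.0960) and -0.42 with anti-CD40 (adjusted p = 0.117). Neither passed, while both did in the slide block fit (0.72 and -0.30, adjusted p = 0.00331 and 0.0373). That fit also passed a higher level with anti-CD40 and Pam2csk4 (0.36, adjusted p = 0.0128, against 0.175 without the block and 0.0236 when these 2 groups alone were fitted). Adding Pam2csk4 to anti-CD40 gave 0.78 (adjusted p = 0.0518), or 0.66 with the slide block (adjusted p = 0.00620). Adding it to anti-CD86 gave -0.47 in both fits and passed with the block (adjusted p = 0.464 without it and 0.0285 with it).

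The probes of Itga4 did not move together. The second probe read 0.08 and 0.06 in unstimulated cells, -0.15 and -0.12 with anti-CD86, and -0.45 and -0.34 with anti-CD86 and Pam2csk4. It was therefore lower with anti-CD86 (-0.20, adjusted p = 0.278), where the brightest probe was higher, and it fell with anti-CD86 and Pam2csk4 (-0.46, SE 0.10, adjusted p = 0.0307), where the brightest probe gave 0.12 (adjusted p = 0.657). The third probe gave 0.08 with anti-CD86 and -0.03 with anti-CD86 and Pam2csk4. All 3 probes were lower with anti-CD40, by -0.42, -0.29 and -0.39, and none of these passed without the slide block. With it the brightest (-0.30, adjusted p = 0.0373) and the second (-0.29, adjusted p = 0.0195) passed. The third did not (-0.22, adjusted p = 0.293). The array file names 1 transcript for each of them, and the direction of Itga4 with anti-CD86 depended on the probe.

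**Figure D3:**
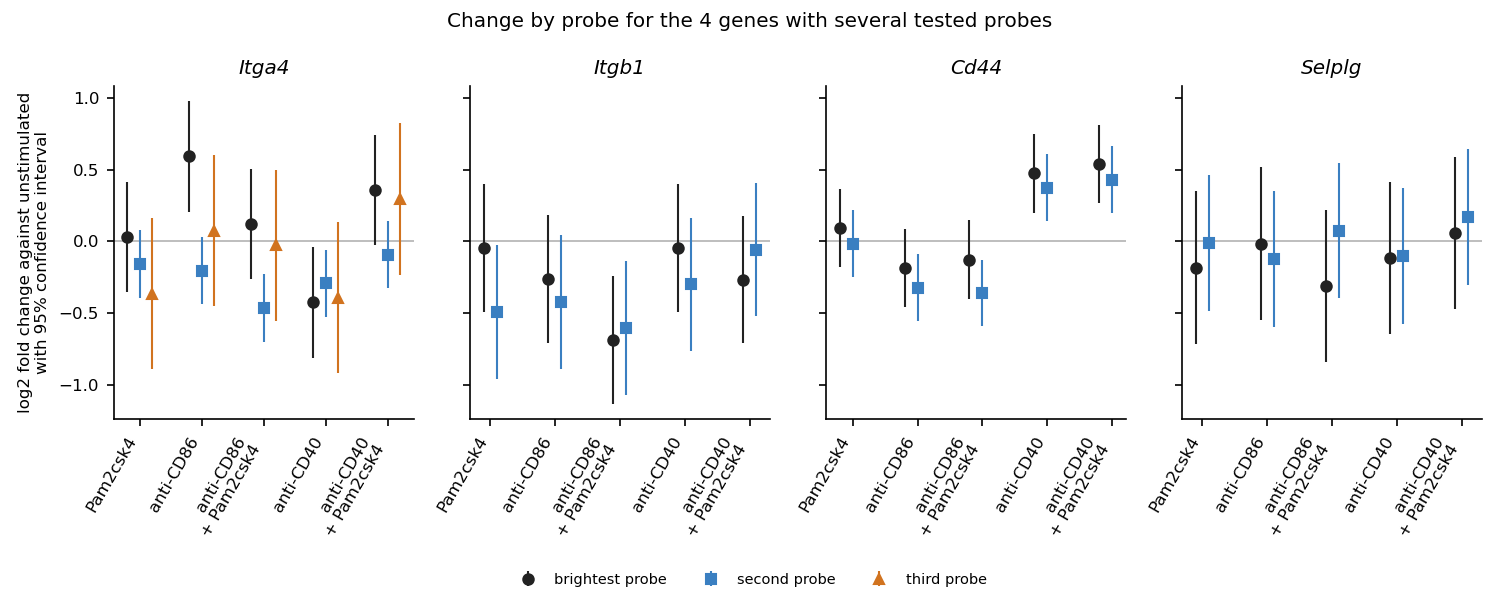
Log2 fold change against unstimulated cells with its 95% confidence interval, for each tested probe of the 4 genes with several, in the 5 stimulated groups. Both probes of Cd44 were higher with anti-CD40, with and without Pam2csk4, whereas the probes of Itga4 pointed in different directions with anti-CD86 (0.59, -0.20 and 0.08).

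Itgb1 encodes the beta 1 chain of VLA-4. Its levels were 0.90 and 0.54 in unstimulated cells, 0.72 and 0.63 with Pam2csk4, 0.63 and 0.29 with anti-CD86, and -0.17 and 0.24 with anti-CD86 and Pam2csk4. They were 0.75 and 0.60 with anti-CD40 and 0.52 and 0.39 with anti-CD40 and Pam2csk4. The arrays of anti-CD86 and Pam2csk4 were the lowest. Their difference from unstimulated cells was -0.69 (SE 0.19, adjusted p = 0.0579), and it was -0.67 with the slide block (adjusted p = 0.0448). The second probe gave -0.60 (adjusted p = 0.0897).

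Itgb7 encodes the beta 7 chain of the gut-homing integrin. Its levels were 5.04 and 5.02 in unstimulated cells, 4.90 and 4.56 with Pam2csk4, 4.51 and 4.19 with anti-CD86, and 4.56 and 4.22 with anti-CD86 and Pam2csk4. They were 4.64 and 4.22 with anti-CD40 and 4.72 and 4.72 with anti-CD40 and Pam2csk4. All 10 stimulated arrays lay below both unstimulated arrays. Even so none of the 5 differences passed, at -0.68 with anti-CD86 (SE 0.20, adjusted p = 0.104), -0.64 with anti-CD86 and Pam2csk4 (adjusted p = 0.0760) and -0.60 with anti-CD40 (adjusted p = 0.0752). Itgb7 lay 0.36 lower on slide 2, and both unstimulated arrays were on slide 1. Blocking on the slide gave -0.50, -0.46 and -0.42 for these 3, and all passed (adjusted p = 0.00224, 0.00155 and 0.00135). The value with anti-CD40 and Pam2csk4, whose arrays shared slide 1 with the unstimulated ones, was -0.31 in both fits (adjusted p = 0.324 without the block and 0.00236 with it), and it also passed when these 2 groups alone were fitted (adjusted p = 0.0213). Within slide 1 alone the differences were -0.52, -0.47, -0.39 and -0.31 for the same 4 groups. Without anti-CD40 replicate 1 the anti-CD40 value was -0.81, and without replicate 2 it was -0.39. The former sets the slide 2 array alone against unstimulated arrays on slide 1, so stimulus and slide cannot be told apart in it.

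Cd44 encodes the hyaluronan receptor, a marker of lymphocyte activation. Its levels were 3.79 and 3.71 in unstimulated cells, 3.83 and 3.87 with Pam2csk4, 3.57 and 3.57 with anti-CD86, and 3.70 and 3.55 with anti-CD86 and Pam2csk4. They were 4.35 and 4.11 with anti-CD40 and 4.34 and 4.25 with anti-CD40 and Pam2csk4. The 4 arrays with anti-CD40 were above the other 8, and the 4 with anti-CD86 were the lowest. Cd44 rose 1.39-fold with anti-CD40 (log2 fold change 0.47, SE 0.12, adjusted p = 0.0337) and 1.45-fold with anti-CD40 and Pam2csk4 (0.54, adjusted p = 0.0177). The second probe gave 0.37 (adjusted p = 0.0406) and 0.43 (adjusted p = 0.0222). With anti-CD86 alone the brightest probe gave -0.19 and the second -0.32, with anti-CD86 and Pam2csk4 they gave -0.13 and -0.36, and none of these passed. The second probe passed in both when the slide was blocked (adjusted p = 0.00889 and 0.00476), while the brightest did not.

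The increase of Cd44 depended on the arrays and on the scaling. The call with anti-CD40 was lost without unstimulated replicate 1 or 2 or anti-CD40 replicate 1 (0.51, 0.43 and 0.35, adjusted p = 0.137, 0.187 and 0.0766), and that with anti-CD40 and Pam2csk4 without any 1 of its 4 arrays (0.49 to 0.58, adjusted p = 0.0793 to 0.127). Scaling to the median shifted all log2 fold changes by -0.57 with anti-CD40, and Cd44 was then -0.09. With anti-CD40 and Pam2csk4 the shift was -0.11 and Cd44 was 0.43, without passing.

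Selplg encodes PSGL-1. Its levels were 3.65 and 3.70 in unstimulated cells, 3.70 and 3.29 with Pam2csk4, 3.83 and 3.49 with anti-CD86, and 3.59 and 3.14 with anti-CD86 and Pam2csk4. They were 3.79 and 3.33 with anti-CD40 and 3.65 and 3.81 with anti-CD40 and Pam2csk4. The slide 2 array was the lower one in each of the 4 groups split between slides, and the gap between slides was 0.41 (adjusted p = 0.00105). The differences from unstimulated cells, -0.31 to 0.06, did not pass with or without the slide block. Their 95% confidence intervals reached from -0.84 to 0.59. The second probe had means of 1.77 in unstimulated cells, 1.76 with Pam2csk4, 1.64 with anti-CD86 and 1.66 with anti-CD40. Its mean was 1.84 with anti-CD86 and Pam2csk4, where the brightest probe was lower than in unstimulated cells, and 1.93 with anti-CD40 and Pam2csk4.

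**Figure D4:**
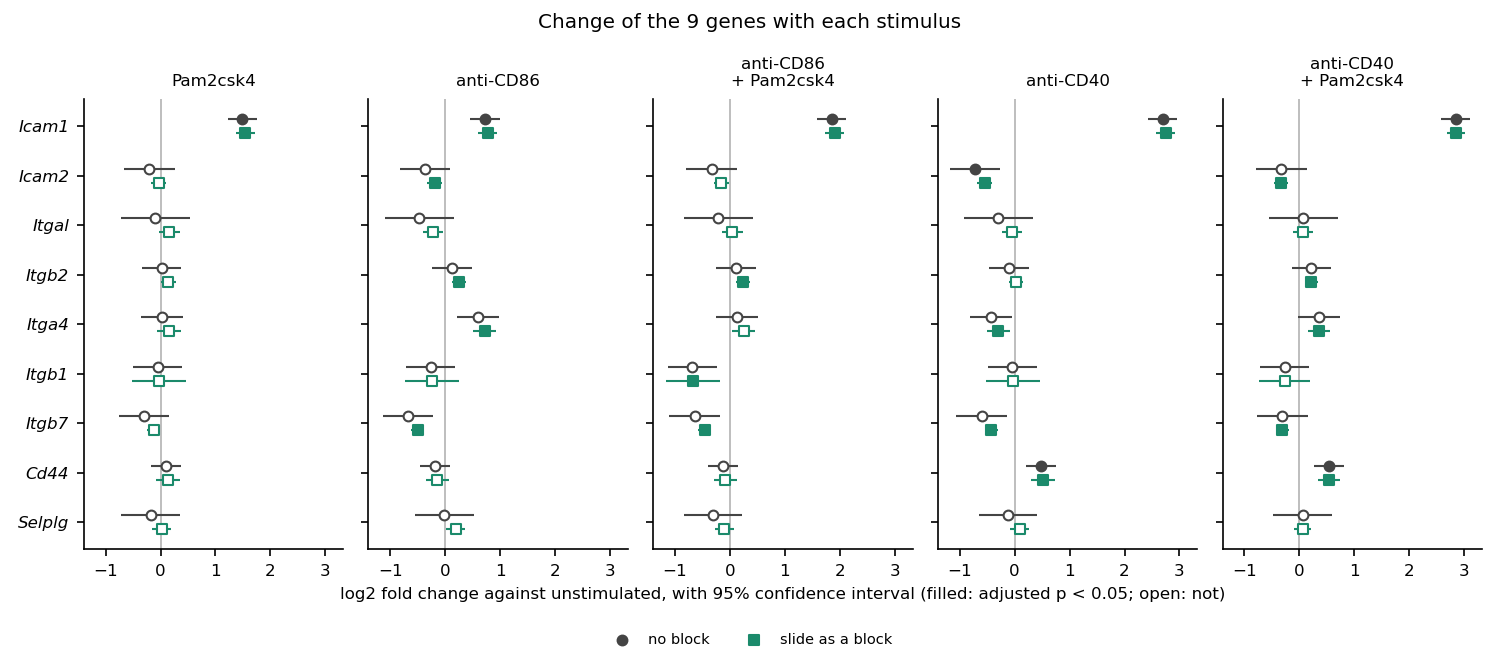
Log2 fold change of the 9 genes against unstimulated cells in the 5 stimulated groups, with 95% confidence intervals, from the fit without a block (circles) and with the slide as a block (squares); filled symbols passed the threshold. Icam1 passed in all 5 groups in both fits, and most of the other filled symbols are squares.

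The slide mattered for most of these genes, as it did for most probes tested. Of the 31596 probes, 18137 differed between the slides, and 12499 of these were lower on slide 2. In a fit with a slide term, Itgal, Selplg, Itgb7, Icam2, Itgb2 and Itga4 differed between the slides by -0.50 to -0.25, whereas Icam1 (-0.11, adjusted p = 0.0970), Cd44 (-0.09, adjusted p = 0.245) and Itgb1 (-0.04, adjusted p = 0.805) did not pass. In the slide block fit 1 of the 9 genes passed with Pam2csk4, 5 with anti-CD86, 4 with anti-CD86 and Pam2csk4, 5 with anti-CD40 and 6 with anti-CD40 and Pam2csk4. The share of all probes that passed in that fit was 10.9%, 28.5%, 35.1%, 37.4% and 47.5%. For the additions to a single stimulus, 2 of 9 genes passed when anti-CD86 was added to Pam2csk4 (11.1% of all probes) and 3 when Pam2csk4 was added to anti-CD86 (7.79%). It was 4 when anti-CD40 was added to Pam2csk4 (31.6%), 2 when Pam2csk4 was added to anti-CD40 (15.3%) and 2 between both combined stimulations (34.6%). The interaction passed for 0 of 9 genes with anti-CD86 (0.228%) and for 1 with anti-CD40 (8.55%).

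The 2 combined stimulations were also compared with each other. Levels with anti-CD40 and Pam2csk4 were above those with anti-CD86 and Pam2csk4 for all 9 genes in the means, by 0.0035 (Icam2) to 0.99 (Icam1). Both arrays of the former were on slide 1 and those of the latter were split between slides. The slide block turned Icam2 to -0.17 and Itgb2 to -0.02, and within slide 1 Icam2 was at -0.19, Itgal at -0.02 and Itgb2 at -0.03. Without the block 2 of the 9 genes passed, where 12.2% of all probes did. They were Icam1 (1.99-fold, 0.99, SE 0.12, adjusted p = 0.00234) and Cd44 (1.58-fold, 0.66, SE 0.12, adjusted p = 0.0111). The second probe of Cd44 gave 0.79 (adjusted p = 0.00333). Both genes also passed in the slide block fit. The Cd44 call was lost without anti-CD40 and Pam2csk4 replicate 1 or 2 or anti-CD86 and Pam2csk4 replicate 2 (0.62, 0.71 and 0.59, adjusted p = 0.0897, 0.0658 and 0.0664). Under median scaling neither gene passed (1.17 for Icam1 and 0.84 for Cd44, adjusted p = 0.345 and 0.678).

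A further 5 lists held genes that work with these molecules, and 69 of their genes were tested. Against unstimulated cells 0 of the 69 passed with Pam2csk4 with limma (15 had an unadjusted p under 0.05, as did 4925 of the 31596 probes). With anti-CD86 2 were lower, and with anti-CD86 and Pam2csk4 9 were lower and 0 higher. With anti-CD40 3 were higher and 13 lower, and with anti-CD40 and Pam2csk4 5 were higher and 12 lower. The shares of 2.90%, 13.0%, 23.2% and 24.6% stood beside 2.07%, 10.7%, 16.8% and 18.1% of all probes. Over all probes most calls were lower as well, 359 of 654, 2299 of 3366, 3384 of 5307 and 3050 of 5722 in the same order. In the slide block fit 16, 29, 39, 39 and 41 of the 69 passed in the 5 comparisons, where 10.9%, 28.5%, 35.1%, 37.4% and 47.5% of all probes did.

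Among 13 other integrin subunits 1 fell with anti-CD86 and Pam2csk4, which was Itgam (the alpha chain of Mac-1, also a myeloid marker, -0.79, adjusted p = 0.0118). In that group the myeloid sum, which includes Itgam, was below that of unstimulated cells. It was 331 to 377 with anti-CD40 and Pam2csk4, against 317 to 346 in unstimulated cells. The B cell sum was higher there too, at 433 to 487 against 336 to 366. With anti-CD40 and Pam2csk4 3 fell, which were Itgb3 (a partner of alpha v and also the beta chain of the platelet integrin, -1.11, adjusted p = 0.00249), Itgam (-0.81, adjusted p = 0.00288) and Itgad (-1.19, adjusted p = 0.0370). The summed signal of the platelet genes was 4.41 to 4.71 times the 75th percentile in unstimulated cells and 2.28 to 3.72 on the stimulated arrays, and the part of platelets in these values was not tested. Itgad was not well above background on 1 array of anti-CD40 and Pam2csk4, so the size of its fall is not exact. The subunits that passed were 7.69% and 23.1% of this list with the 2 combined stimulations, beside 10.7% and 18.1% of all probes. With the slide block 3 and 5 of the 13 passed, where 35.1% and 47.5% of all probes did. Of 15 adhesion ligands and selectins, the ICAM relatives Icam4 (2.24, adjusted p = 0.000322) and Icam5 (1.56, adjusted p = 0.00346) rose with anti-CD40 and Pam2csk4, and Cd34 (-1.20, adjusted p = 0.000901) and Cd2 (-0.56, adjusted p = 0.0410) fell. With anti-CD86 and Pam2csk4 only Cd34, a sialomucin, passed in this list without the slide block (-1.34, adjusted p = 0.00539). With the block 7 of the 15 passed (35.1% of all probes). Among them were Icam4 (0.83, adjusted p = 0.00111) and Icam5 (0.33, adjusted p = 0.0327), both higher, and Cd34 (-1.27, adjusted p = 0.000591). The shares without the block were 6.67% and, with anti-CD40 and Pam2csk4, 26.7%, beside 10.7% and 18.1% of all probes.

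Of 26 genes of integrin activation and linkage, 3 passed with anti-CD86 and Pam2csk4 (11.5%, beside 10.7% of all probes). All 3 were lower, as were 2299 of the 3366 probes that passed. These genes were the adaptor Fyb (-0.63, adjusted p = 0.0481) and the small GTPases Rap1a (-0.54, adjusted p = 0.0330) and Rap1b (-0.53, adjusted p = 0.0284), which switch integrins to the active shape. With anti-CD40 and Pam2csk4 Rapgef1, an exchange factor for Rap1 (0.70, adjusted p = 0.0307), and the kinase Stk4 (0.67, adjusted p = 0.0122) rose. Zyx (-0.70, adjusted p = 0.0353), Sharpin (-0.70, adjusted p = 0.0180), Rap1a (-0.55, adjusted p = 0.0180) and Skap2 (-0.47, adjusted p = 0.0257) fell. With anti-CD40 and Pam2csk4 the share that passed was 23.1%, beside 18.1% of all probes. With the slide block 18 and 17 of the 26 passed with the 2 combined stimulations, where 35.1% and 47.5% of all probes did. The list median without the block was -0.28 and -0.20, beside -0.03 and 0.01 over all probes.

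Of 9 enzymes and transporters that modify PSGL-1, those that passed with either combined stimulation were lower. They were 33.3% of the list with anti-CD86 and Pam2csk4 and 22.2% with anti-CD40 and Pam2csk4, beside 10.7% and 18.1% of all probes. Fut7, the fucosyltransferase that completes the selectin-binding sugar, fell by 1.11 with anti-CD86 and Pam2csk4 (adjusted p = 0.0128) and by 0.76 with anti-CD40 and Pam2csk4 (adjusted p = 0.0176). St3gal4 (-0.73, adjusted p = 0.0304) and St3gal6 (-0.59, adjusted p = 0.0414) fell with the former, and Slc35c1, a GDP-fucose transporter (-0.90, adjusted p = 0.0142), with the latter. The list median was -0.39 and -0.45. With the slide block 6 of the 9 passed with each combined stimulation, where 35.1% and 47.5% of all probes did. Of 6 genes of the ERM proteins and the hyaluronan system, Spp1, which encodes the CD44 ligand osteopontin, fell with both (-0.70 and -0.78, adjusted p = 0.0421 and 0.0175). Msn, a linker of CD44 and PSGL-1 to actin, rose with anti-CD40 and Pam2csk4 (0.64, adjusted p = 0.0326), and the list median was -0.38 and 0.01. In this list 16.7% and 33.3% passed without the slide block, and 5 and 4 of the 6 genes with it.

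**Figure D5:**
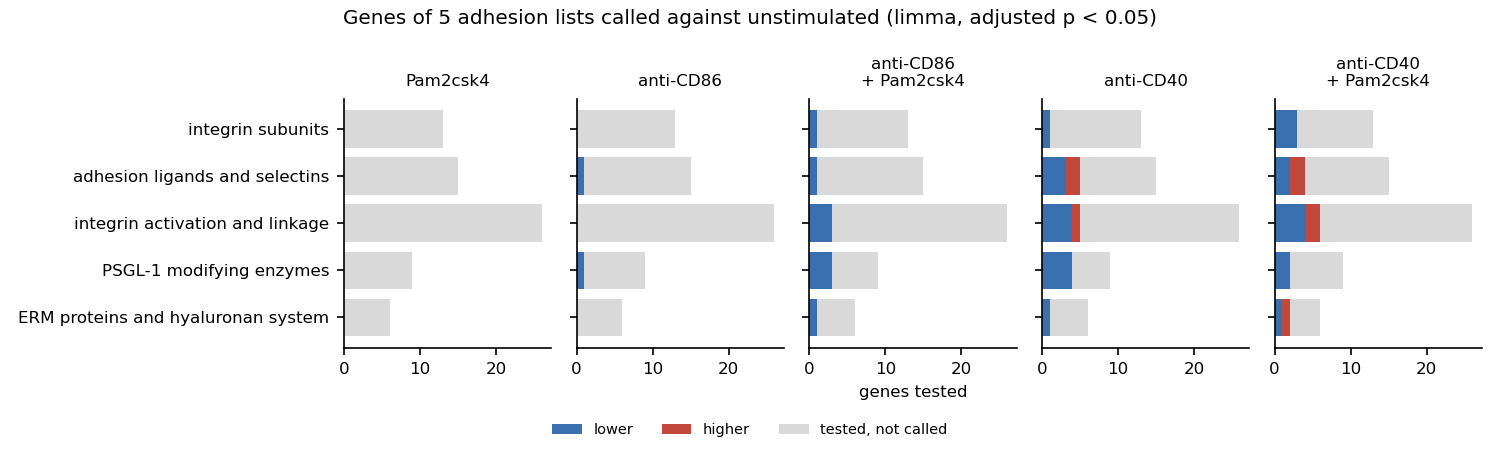
Number of genes tested in each of 5 adhesion lists, split into those lower, higher or not passing against unstimulated cells in the 5 stimulated groups. With Pam2csk4 no gene passed, and with anti-CD86 and Pam2csk4 the 9 that passed were all lower, where 2299 of all 3366 probes that passed were lower.

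Over the 12 arrays, the genes whose levels were most like those of Icam1 among 16780 candidates were Pim1 (r = 0.991), Lrrn3 (0.981) and Irf4 (0.979). Pim1 encodes a kinase and Irf4 a transcription factor of activated B cells. For Cd44 they were Lmo7 (0.986), Grhl1 (0.981) and Slamf1 (0.981), and for Icam2 1810046J19Rik (0.986), Zgpat (0.985) and Tmem179b (0.983). For Itgb7 they were Hist1h2ah (0.993), Cenpv (0.993) and Yif1b (0.992), for Itgal Bcl2 (0.984), Il18bp (0.967) and Supt4h1 (0.966), and for Itgb2 Prpf6 (0.982), Cd247 (0.979) and Cars (0.976). Itga4 was most like Snrk (0.946), Itgb1 most like Scg5 (0.897) and Selplg most like Fbxo34 (0.963). These r-values describe 12 arrays that share 6 groups and 2 slides, and the highest of so many candidates is high by selection.

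The 250 bases before the start of Icam1 and of Cd44, the genes that rose with anti-CD40, are given for reference from RefSeq (GRCm38.p6), 5′ to 3′ on the strand of the gene. Such windows were found for 5 of the 9 genes (Icam1, Itga4, Itgb1, Itgb7 and Cd44). Capitals mark matches, on either strand, to GGNNNTTCC (kappaB-type), TTCNNNGAA (GAS-type), TGANTCA (AP-1-type), TATAAA and the GC box GGGCGG.
Icam1, chr9:21015690-21015939, + strand: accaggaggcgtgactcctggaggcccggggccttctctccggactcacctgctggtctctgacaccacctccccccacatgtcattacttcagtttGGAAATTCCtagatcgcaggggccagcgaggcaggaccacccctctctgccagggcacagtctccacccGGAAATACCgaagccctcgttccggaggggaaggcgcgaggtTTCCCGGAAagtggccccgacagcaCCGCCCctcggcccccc
Cd44, chr2:102901666-102901915, - strand: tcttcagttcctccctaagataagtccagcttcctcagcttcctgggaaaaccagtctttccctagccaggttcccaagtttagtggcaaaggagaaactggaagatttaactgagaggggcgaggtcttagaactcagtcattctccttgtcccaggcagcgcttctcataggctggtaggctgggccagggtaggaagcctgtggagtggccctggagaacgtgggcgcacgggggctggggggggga

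The Icam1 window held 2 kappaB-type matches, at 153 to 145 and 84 to 76 bases before the start, a GAS-type match at 42 to 34 and a GC box at 17 to 12. Of 32851 promoter windows of this length, 15.7% held a kappaB-type match, 7.02% a GAS-type match, 6.75% an AP-1-type match, 12.4% TATAAA and 32.7% a GC box. The Cd44 window held none of these letters. Itgb1 had a kappaB-type match and a GC box, Itga4 had a GC box, and Itgb7 had none. A match is a description of the sequence and does not show that a factor bound there.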

How the data were processed

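RNA of RB cells was hybridised in 1 colour (Cy3) to 12 custom Agilent mouse arrays, 2 for each of 6 groups. The authors scanned the arrays and extracted spot intensities with Agilent Feature Extraction 10.5.1.1, per the file headers, and these background-subtracted processed intensity values were used. A table of log2 values was also deposited by the authors, and on each array it equals log2 of the processed signal minus 1 constant within 0.009 of the 75th percentile.

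Control and outlier spots were left out, spots of a probe were averaged, and the 75th percentile of each array was subtracted from log2 of the processed signal. A probe was tested where both arrays of any 1 group read it well above background and no value was missing, which left 31596 probes. Groups were compared with limma 3.58.1 in R 4.3.3 (lmFit and eBayes over all 12 arrays, 6 residual degrees of freedom) with Benjamini-Hochberg adjustment. All adjusted p-values are from limma. An exact permutation test of 2 arrays against 2 cannot reach the threshold of 0.05, so none was used. The fit was run on simulated data with changes added to anti-CD40 and Pam2csk4 only, compared with unstimulated cells. The arrays of both groups were on slide 1, so the simulation did not test comparisons with groups split between slides. The number of arrays limits the precision.

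The genes and the lists of further genes were chosen with earlier results of these data known. All 9 genes are named. From each list, up to 4 genes with the highest and up to 4 with the lowest log2 fold change among those that passed are named for each combined stimulation. Alternatives were scaling to the median, quantile normalization, normexp background correction with an offset of 50, the deposited table, other filters on dim probes, the slide or the replicate number as a block, only the groups compared, no empirical Bayes moderation, the mean of the probes of a gene, and leaving out each array. Tables were made in Python 3.11.15 (pandas 2.3.3, numpy 2.4.6) and plots with matplotlib 3.10.9.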

Additional observations from a re-analysis of the deposited data

Results flagged for a closer look

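The response of Icam1 to Pam2csk4 differed with and without anti-CD40 by a test of the difference itself. The CD40 by TLR2 interaction was -1.34 on the log2 scale (SE 0.16, limma adjusted p = 0.00934, or -1.45 and 0.00150 with the slide block). Under median scaling, which moved anti-CD40 replicate 2 the most, it was -0.69 and did not pass (adjusted p = 0.458). With no filter on dim probes it was -1.34 and did not pass (adjusted p = 0.0778), and the call was also lost without unstimulated replicate 1 or 2 or anti-CD40 and Pam2csk4 replicate 1 or 2 (-1.37 to -1.31, adjusted p = 0.0511 to 0.0658). Icam1 lay higher with Pam2csk4 than without it on both arrays in either background, by 1.49 in the mean without anti-CD40 and by 0.15 with it.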

How the results depend on the processing

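The number of the 9 genes that passed was 1, 1, 1, 3 and 2 against unstimulated cells with Pam2csk4, anti-CD86, anti-CD86 and Pam2csk4, anti-CD40, and anti-CD40 and Pam2csk4. It was 0 for adding anti-CD86 to Pam2csk4, 1 for adding Pam2csk4 to anti-CD86, 1 for adding anti-CD40 to Pam2csk4, 0 for adding Pam2csk4 to anti-CD40, 2 between both combined stimulations, and 0 and 1 for the interactions with anti-CD86 and with anti-CD40. Scaling to the median gave 0, 0, 0, 1 and 1 against unstimulated cells, and 0 for adding Pam2csk4 to anti-CD86, adding anti-CD40 to Pam2csk4, both combined stimulations and the interaction with anti-CD40. With no filter on dim probes 0, 0, 1 and 1 passed with Pam2csk4, anti-CD86, anti-CD40, and anti-CD40 and Pam2csk4, 0 for adding Pam2csk4 to anti-CD86, 1 between combined stimulations and 0 for the interaction with anti-CD40. Fits of only the groups compared gave 0, 0, 0, 0 and 5 against unstimulated cells, and 0 for adding Pam2csk4 to anti-CD86 and between combined stimulations. These fits have fewer arrays. The slide block gave 5, 4, 5 and 6 for the last 4 groups against unstimulated cells, and 2, 3, 4 and 2 for the additions. Quantile normalization gave 2 with anti-CD86, and 2 and 1 for adding anti-CD40 to Pam2csk4 and Pam2csk4 to anti-CD40. Probes well above background on all 12 arrays gave 2 with anti-CD86 and Pam2csk4, and 2 and 1 for the same additions. Normexp gave 3 with anti-CD86 and Pam2csk4. The mean of the probes of a gene gave 2 there and 2 for adding anti-CD40 to Pam2csk4, as did no moderation (2) for that addition. Counts that changed by less are not listed. With anti-CD40, for example, Itgb7 also passed with normexp (-0.63, limma adjusted p = 0.0355), and Icam2 did not pass without moderation (-0.72, adjusted p = 0.0672). Leaving out 1 array, which leaves 1 array in a group, changed some of these counts too. The share of all probes in those fits was not computed, so their counts are not set out here. The share of all probes that passed moved with these settings too. Against unstimulated cells, in the same order, it was 0.307%, 0.225%, 0.418%, 1.1% and 1.47% with median scaling, 0.0131%, 0%, 0.0425%, 1.81% and 4.02% with no filter, 0%, 0%, 0%, 0% and 40.3% in fits of only the groups compared, and 10.9%, 28.5%, 35.1%, 37.4% and 47.5% with the slide block. With anti-CD86 it was 5.53% with quantile normalization. With anti-CD86 and Pam2csk4 it was 16.8% over probes well above background on all arrays, 13.6% with normexp and 9.04% with the mean of the probes. For adding anti-CD40 to Pam2csk4 it was 0.75% with median scaling, 12.8% both with quantile normalization and over probes well above background on all arrays, 8.87% with the mean of the probes and 9.91% without moderation. For adding Pam2csk4 to anti-CD86, both combined stimulations and the interaction with anti-CD40 it was 0.133%, 0.867% and 0.51% with median scaling and 0.0261%, 1.97% and 0.186% with no filter, and for the first and second of these 0% and 1.2% in fits of only the groups compared. For adding Pam2csk4 to anti-CD40 it was 4.03% with quantile normalization and 3.15% over probes well above background on all arrays. The cause was not tested.

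With the replicate number as a block, 3 genes passed with anti-CD86, 3 with anti-CD86 and Pam2csk4, 5 with anti-CD40, 2 for adding anti-CD40 to Pam2csk4 and 1 for adding Pam2csk4 to anti-CD40, where 12.8%, 24.8%, 30.2%, 17.1% and 6.61% of all probes did. The other counts were as without the block. The labels do not say what a number shares. Deviations of same-numbered arrays correlated at 0.538 to 0.674 among the 4 groups split between slides and at -0.107 to 0.067 in pairs with unstimulated cells or anti-CD40 and Pam2csk4.

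Of 805 values of 50 log2 fold changes under alternatives, 47 had the other direction, and 1 of these was of a value that had passed, Cd44 with anti-CD40 at -0.092 under median scaling. Median scaling also turned Itgb2 (-0.18), Itga4 (-0.17) and Cd44 (-0.10) with Pam2csk4, Itgb2 with anti-CD86 (-0.016), Itgb2 (-0.18) and Itga4 (-0.17) with anti-CD86 and Pam2csk4, and Itgal (-0.041) and Selplg (-0.050) with anti-CD40 and Pam2csk4. The slide block and slide 1 alone turned Itgal (0.16 and 0.11) and Selplg (0.025 and 0.024) with Pam2csk4, Selplg with anti-CD86 (0.19 and 0.16), Itgal with anti-CD86 and Pam2csk4 (0.042 and 0.090), and Itgb2 (0.027 and 0.022) and Selplg (0.092 and 0.11) with anti-CD40. Slide 1 alone turned Itgb1 with anti-CD40 (0.030). Quantile normalization turned Selplg with anti-CD86 (0.12), Cd44 with anti-CD86 and Pam2csk4 (0.031), and Itgb2 (0.017), Itgb1 (0.019) and Selplg (0.013) with anti-CD40. The mean of the probes turned Itga4 with Pam2csk4 (-0.16) and with anti-CD86 and Pam2csk4 (-0.12), and normexp turned Selplg with anti-CD40 and Pam2csk4 (-0.016). Leaving out 1 array turned the direction of some values that had not passed. With Pam2csk4 the ranges without 1 array were Itgal -0.30 to 0.11, Itgb2 -0.12 to 0.16, Itga4 -0.11 to 0.16, Itgb1 -0.23 to 0.13 and Selplg -0.39 to 0.024. With anti-CD86 the range without 1 array was Selplg -0.19 to 0.16. With anti-CD86 and Pam2csk4 the ranges without 1 array were Itgal -0.51 to 0.090, Itgb2 -0.028 to 0.25 and Itga4 -0.0016 to 0.25. With anti-CD40 the ranges without 1 array were Itgb2 -0.22 to 0.022, Itgb1 -0.23 to 0.13 and Selplg -0.34 to 0.11. With anti-CD40 and Pam2csk4 the ranges without 1 array were Itgal -0.0022 to 0.14 and Selplg -0.020 to 0.14.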

Other observations

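Icam1 lies in a row of ICAM genes, and its 8 nearest protein-coding neighbours in the RefSeq gene order, 4 on each side, were looked at after its values and those of Icam4 and Icam5 had been seen. In this order they are Eif3g, Dnmt1, S1pr2 and Mrpl4 before Icam1, and Icam4, Icam5, Zglp1 and Fdx1l after it, and 7 of them were tested (not Zglp1). With anti-CD40, Icam4 (log2 fold change 1.62, limma adjusted p = 0.00256) and Icam5 (1.17, adjusted p = 0.0155) rose. With anti-CD40 and Pam2csk4, Icam4 (2.24, adjusted p = 0.000322), Icam5 (1.56, adjusted p = 0.00346) and Fdx1l (0.86, adjusted p = 0.0392) rose. With anti-CD86, where Icam1 rose by 0.72, the values were -0.01 for Icam4 (adjusted p = 0.977) and 0.00 for Icam5 (adjusted p = 0.996). With Pam2csk4 they were 0.89 (adjusted p = 0.124) and 0.53 (adjusted p = 0.317), which did not pass. With anti-CD86 and Pam2csk4 they were 0.67 (adjusted p = 0.0557) and 0.53 (adjusted p = 0.163). Blocking on the slide, Icam4 passed with Pam2csk4 (1.04, adjusted p = 0.00288), and both Icam4 (0.83, adjusted p = 0.00111) and Icam5 (0.33, adjusted p = 0.0327) passed with anti-CD86 and Pam2csk4. Without the block the 4 genes before Icam1 did not pass in any of the 5 comparisons with unstimulated cells. Of the 7 neighbours tested, 2 passed with anti-CD40 and 3 with anti-CD40 and Pam2csk4, where 16.8% and 18.1% of all probes did. With Pam2csk4, anti-CD86, and anti-CD86 and Pam2csk4, 0 of the 7 passed, where 0.133%, 2.07% and 10.7% of all probes did. With it Dnmt1 was lower with anti-CD86 and Pam2csk4, anti-CD40, and anti-CD40 and Pam2csk4 (-0.26, -0.26 and -0.25, adjusted p = 0.0235, 0.0208 and 0.0162), and Eif3g was higher with anti-CD40 and Pam2csk4 (0.38, adjusted p = 0.0167). Fdx1l then also passed with anti-CD40 (0.49, adjusted p = 0.00226). In the slide block fit 10.9% of all probes passed with Pam2csk4 and 35.1% with anti-CD86 and Pam2csk4. The share was 37.4% with anti-CD40 and 47.5% with anti-CD40 and Pam2csk4.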
